A study of Mus musculus with 6 samples.

Results

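Fibro-adipogenic progenitors (FAPs) are the resident mesenchymal cells of skeletal muscle, and 10 genes that mark them in muscle were followed in cultures of satellite cells (SCs) from mice with and without an inducible deletion of NF-YA. The genes are Pdgfra, Osr1, Ly6a, Thy1, Dpp4, Dcn, Lum, Dpt, Mfap5 and Pi16, taken by symbol from the 35976 genes quantified in 6 RNA-seq libraries, and all 10 were among the 17348 genes tested. Of the libraries, 3 were of NF-YA cKO mice and 3 of NF-YA fl/fl mice. NF-YA is the subunit of the trimeric factor NF-Y that binds CCAAT boxes in promoters. Both genotypes carried floxed NF-YA alleles and both received tamoxifen (5 daily injections of 0.1 mg per g of body weight per the Methods, a 20 mg/ml solution per the labels), and the NF-YA cKO mice carried in addition a tamoxifen-inducible Cre driven by Pax7, so that recombination was directed to Pax7-expressing cells. Mice were 5 to 7 weeks old per the labels and 6 to 8 weeks old per the Methods. Hindlimb muscles were digested 7 days after the last injection, cells carrying CD31, CD45, CD11b or Sca1 were removed with magnetic beads, and the remaining cells grew for 4 days in growth medium with 2.5 ng/ml FGF-2 before RNA was taken. Sca1 is the product of Ly6a, so the protocol selected against cells that carry the protein of 1 of the 10 genes.

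FAPs lie between the muscle fibers, carry the receptor PDGFRα and Sca1 on their surface, secrete matrix and growth factors that help SCs during regeneration, and give rise to fibroblasts and adipocytes when regeneration fails. They descend in part from cells with the transcription factor Osr1 and are not derived from Pax7-expressing cells. A state near vessels and fascia is known for Pi16 and Dpp4, and the small proteoglycans decorin and lumican bind collagen fibrils in the matrix that FAPs make. Several of these genes are shared with other mesenchymal cells, and Dcn and Thy1 are not restricted to FAPs, so that a level in a mixed culture does not name its cell. In bulk RNA, fewer cells of a type and less RNA per cell cannot be told apart.

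Promoter sequence was printed for the genes whose levels or transcripts are described at length below and for the gene with a CCAAT box, since NF-Y binds that motif. The sequences are the 250 bases before the transcription start in RefSeq on GRCm38.p6, written 5′ to 3′ on the strand of the gene, with the CCAAT and TATA boxes in capitals, and 4 of the 10 genes had an entry (Pdgfra, Dpp4, Pi16 and Dpt).
Pdgfra, chr5:75152001-75152250, plus strand: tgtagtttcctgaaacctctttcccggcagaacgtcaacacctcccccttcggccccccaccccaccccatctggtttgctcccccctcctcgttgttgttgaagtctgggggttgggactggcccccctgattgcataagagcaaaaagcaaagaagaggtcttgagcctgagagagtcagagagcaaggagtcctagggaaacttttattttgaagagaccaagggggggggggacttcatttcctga
Dpp4, chr2:62412232-62412481, minus strand: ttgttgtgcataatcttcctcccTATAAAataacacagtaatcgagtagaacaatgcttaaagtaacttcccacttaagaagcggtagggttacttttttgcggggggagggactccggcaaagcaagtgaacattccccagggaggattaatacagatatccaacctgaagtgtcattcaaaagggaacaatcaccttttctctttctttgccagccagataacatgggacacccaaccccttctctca
Pi16, chr17:29318632-29318881, plus strand: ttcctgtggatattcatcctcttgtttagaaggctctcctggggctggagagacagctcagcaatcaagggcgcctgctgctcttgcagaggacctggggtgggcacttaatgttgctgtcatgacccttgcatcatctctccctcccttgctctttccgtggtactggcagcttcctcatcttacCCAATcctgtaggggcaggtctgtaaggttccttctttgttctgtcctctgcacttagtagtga
CCAAT, searched on both strands, occurred in the window of Pi16 only, 64 bases before the start, and in none of the other 3. In all promoters of the table, 33.8% of 32851 windows of this length held it. The Dpp4 window held TATAAA, 227 bases before the start (12.4% of all windows held it), and GGGCGG occurred in none of the 4 windows (32.7% of all windows held it). The 64 bases of Pi16 count to its RefSeq start at 29318882. In GENCODE, the source of the gene coordinates below, Pi16 begins at 29317680 and the first exon of its 2245 nt transcript at 29318824. The printed Pi16 window therefore lies within the GENCODE gene and runs into that exon. A match is a description of letters, and binding at these promoters was not measured here.

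Library totals ran from 26936230 to 41118984 expected counts, and levels are given as CPM, counts relative to the library size after TMM scaling, in which 3 counts correspond to 0.0705 to 0.115 CPM. Nfya, the targeted gene, was at 27.0 to 28.5 CPM in NF-YA cKO and 23.4 to 36.9 CPM in the NF-YA fl/fl libraries over all its transcripts. An entry for the deleted Nfya allele, which the authors had added to the transcripts, held 22.3% to 34.2% of the Nfya counts in the NF-YA cKO libraries and none (0) in the controls. Xist, the RNA of the inactive X chromosome, was at 836 to 852 CPM in the 3 NF-YA cKO libraries and at 0.306 to 0.475 CPM in the 3 NF-YA fl/fl libraries, and the Y-linked Ddx3y was at 0.047 to 0.0957 CPM against 81.0 to 88.6 CPM. The Methods describe male mice, whereas these 2 genes have the female pattern in all 3 NF-YA cKO libraries and the male pattern in all 3 NF-YA fl/fl libraries. Genotype and sex therefore cannot be told apart in any comparison below. NF-YA fl/fl 3 stood apart from NF-YA fl/fl 1 and 2. Over all tested genes its median level was 101% of the mean of the other 2 libraries and 12.1% of genes were under 50% of it. Of the 10 FAP genes 8 were under 50%, with a median of 28.8%. Low values were found in other lists as well: 71.4% of 7 tenocyte, 66.7% of 9 pericyte and smooth muscle, 66.7% of 18 elastic microfibril, 64.3% of 14 fibrogenic, 58.3% of 24 other FAP and fibroblast and 57.1% of 14 macrophage and leukocyte genes were under 50% too, against none (0) of 10 SC and myoblast and of 9 Schwann cell markers. The same library was highest in Myod1, the factor that commits SCs to the muscle lineage (1146 CPM against 361 and 295 CPM). The test of each FAP gene below is therefore given with and without NF-YA fl/fl 3. This library was singled out after the values of the FAP genes were seen. Its omission removes spread among the controls in most of these genes, so the FDRs without it are descriptive.

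The fitted changes of the 10 genes ran in both directions. Lum and Dpp4 were called higher in NF-YA cKO libraries and 0 of the 10 were called lower, where a call in edgeR's quasi-likelihood test needed a log2 fold change of more than 1 in size at an FDR under 0.01. Of all tested genes 4.65% were called higher and 7.67% lower. At an unadjusted p under 0.05 and any fold, 4 of the 10 were higher and 2 lower, beside 24.6% and 24.1% of all tested genes. With DESeq2, the tool the study used, 3 genes were called higher (Dcn, Dpp4 and Lum) and 2 lower (Ly6a and Thy1), beside 5.68% and 10.4% of all tested genes. The median log2 fold change of the 10 genes was -0.27, with 4 above 0, beside -0.02 over all tested genes. In 4 genes the genotypes were separated library by library. The lowest NF-YA cKO library exceeded the highest NF-YA fl/fl library in Dcn, Lum and Dpp4, and the reverse held for Thy1. Of all tested genes 29.1% lay wholly above and 26.2% wholly below. The 3 of 10 above are thus near that background, and the 1 of 10 below is under it.

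**Figure D1:**
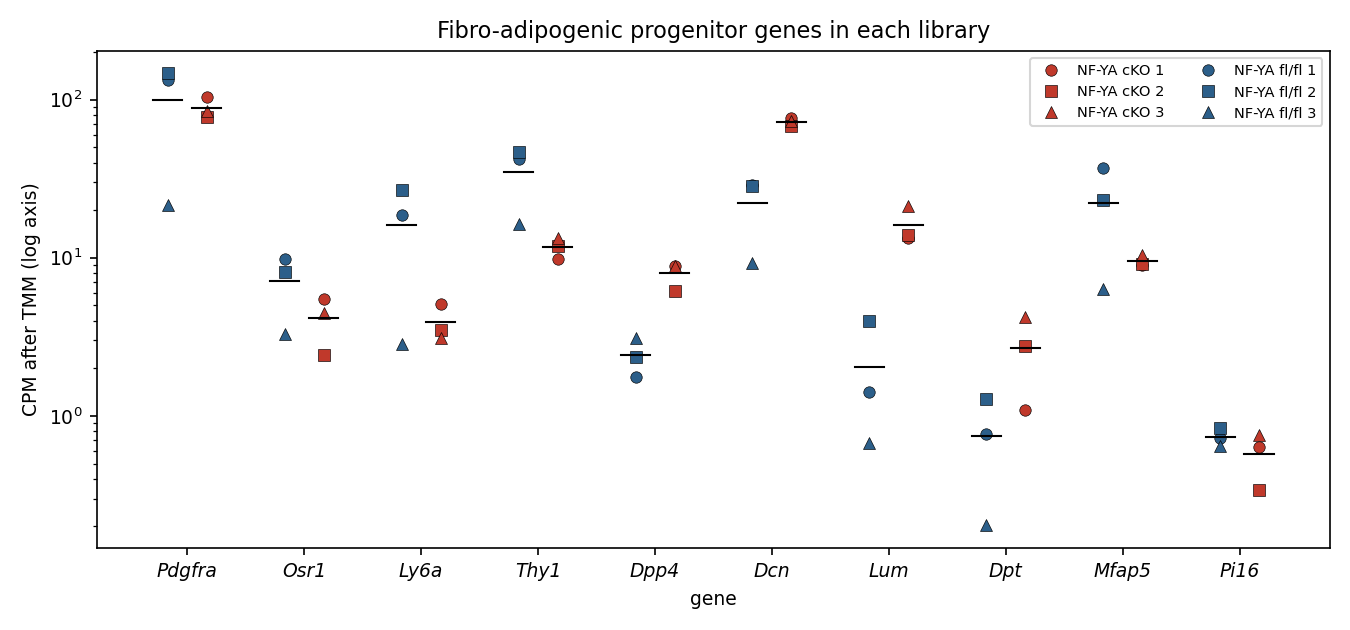
Level of each of the 10 FAP genes in each library, as CPM after TMM scaling on a log axis, with NF-YA fl/fl libraries in blue to the left and NF-YA cKO libraries in red to the right of each gene, symbols for replicate number and a bar for the mean of 3. NF-YA fl/fl 3 (blue triangle) lies at 12.5% to 36.9% of the mean of NF-YA fl/fl 1 and 2 in 8 genes, and Dcn, Lum and Dpp4 lie higher and Thy1 lower in every NF-YA cKO library.

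Levels of different genes were compared as TPM, which the authors scaled to transcript length. In NF-YA fl/fl libraries Thy1 (26.9 ± 15.7, SD, n = 3), Ly6a (25.5 ± 21.7), Mfap5 (23.0 ± 16.1), Pdgfra (19.0 ± 14.4) and Dcn (15.5 ± 9.24 TPM) came first, and the order among these 5 lay within their spread. Osr1 (4.57 ± 2.52), Lum (1.34 ± 1.34), Dpp4 (0.863 ± 0.207), Dpt (0.633 ± 0.532) and Pi16 (0.410 ± 0.131 TPM) followed, and the ranges of neighbours in this order overlapped. In NF-YA cKO libraries Dcn led with 45.5 ± 6.24 TPM, and its lowest library (38.7 TPM) was above the highest library of Pdgfra (18.3 TPM), the next gene, at 14.8 ± 3.33 TPM. Lum (9.11 ± 2.73), Mfap5 (8.88 ± 1.21), Thy1 (7.92 ± 1.23) and Ly6a (5.33 ± 1.79 TPM) had neighbouring ranges that overlapped. Dpp4 (2.77 ± 0.733), Osr1 (2.44 ± 1.08) and Dpt (1.94 ± 1.15 TPM) were lower and overlapped each other, and Pi16 was last at 0.313 ± 0.134 TPM. Lum thus moved from place 7 to place 3 and Dcn from 5 to 1, while Thy1 moved from 1 to 5, as a description of the order.

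Pdgfra and Osr1, the receptor and the transcription factor that define the lineage, were considered first. Pdgfra (chromosome 5, 75152292 to 75198215, plus strand) encodes the receptor for PDGF ligands that keeps FAPs proliferating. It was at 104, 77.7 and 84.1 CPM in NF-YA cKO libraries 1 to 3 and at 132, 147 and 21.6 CPM in the NF-YA fl/fl libraries 1 to 3. The NF-YA cKO libraries lay between the 2 high and the 1 low NF-YA fl/fl library, and the groups overlapped. Pdgfra thus had a log2 fold change of -0.18 ± 0.60 (SE, n = 3 and 3, FDR = 0.835). Without NF-YA fl/fl 3 it was -0.66 with an FDR of 0.00607, below the fold needed for a call, and without NF-YA fl/fl 1 or 2 it was 0.07 or 0.19. The direction of Pdgfra was thus not settled by these libraries, the value being 0.08 and 0.14 with limma on log2(TPM + 1) and log2(TPM + 0.1). Osr1 (chromosome 12, 9570116 to 9581500, plus strand), a zinc-finger factor of embryonic limb connective tissue, was at 5.52, 2.41 and 4.47 CPM in NF-YA cKO and 9.82, 8.18 and 3.29 CPM in the NF-YA fl/fl libraries. The NF-YA cKO libraries were below NF-YA fl/fl 1 and 2, and NF-YA fl/fl 3 lay among them. Its log2 fold change was -0.78 ± 0.46 (FDR = 0.216), and -1.13 without NF-YA fl/fl 3 (FDR = 0.0257).

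Ly6a and Thy1, surface antigens of FAPs, both had negative log2 fold changes, in all 17 alternatives as well. Neither passed the call in edgeR's main test with all libraries. With DESeq2 on all libraries both were called lower (FDR = 0.00451 for Ly6a and 0.000137 for Thy1), beside 10.4% of all tested genes. Ly6a (chromosome 15, 74994877 to 74998031, minus strand) encodes the GPI-anchored Sca1, by which FAPs are gated, and was at 5.10, 3.48 and 3.13 CPM in NF-YA cKO and at 18.5, 26.9 and 2.85 CPM in the NF-YA fl/fl libraries. NF-YA fl/fl 1 and 2 were above all NF-YA cKO libraries and NF-YA fl/fl 3 was below all of them. In the test Ly6a had a log2 fold change of -2.05 ± 0.71 (FDR = 0.059). Without NF-YA fl/fl 3 it was -2.56 (FDR = 0.000492) and passed the call. Ly6a belongs to a cluster of similar genes, among which RSEM may split reads, so that its level is an estimate. Thy1 (chromosome 9, 44043384 to 44048579, plus strand), the GPI-anchored CD90 of fibroblasts and other mesenchymal cells, was at 9.85, 11.8 and 13.4 CPM in NF-YA cKO and at 42.4, 46.4 and 16.4 CPM in the NF-YA fl/fl libraries. Every NF-YA cKO library was below every NF-YA fl/fl library, NF-YA fl/fl 3 being the closest. The log2 fold change of -1.59 ± 0.38 had an FDR of 0.0161 and missed the call. It was -1.93 without NF-YA fl/fl 3 (FDR = 0.000174).

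Dpp4 (chromosome 2, 62330073 to 62412231, minus strand) encodes a membrane peptidase, CD26, of the adventitial FAP state. It was at 8.87, 6.15 and 8.88 CPM in NF-YA cKO and at 1.76, 2.35 and 3.12 CPM in the NF-YA fl/fl libraries. Dpp4 was higher in every NF-YA cKO library, and it was the 1 gene of the 10 that was highest in NF-YA fl/fl 3 within its genotype. Its log2 fold change was 1.72 ± 0.27 (FDR = 0.00363), and 1.94 without NF-YA fl/fl 3 (FDR = 0.00133). Pi16 (chromosome 17, 29317680 to 29330593, plus strand), a secreted protein of the CAP family that marks the same state, was at 0.638, 0.338 and 0.752 CPM in NF-YA cKO and 0.726, 0.833 and 0.645 CPM in the NF-YA fl/fl libraries. These levels rest on 14 to 32 counts per library and the groups overlapped. For Pi16 the log2 fold change was -0.35 ± 0.36 (FDR = 0.47), or -0.45 without NF-YA fl/fl 3 (FDR = 0.383), and a difference in Pi16 was not detected.

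Of the secreted matrix genes, Dcn, Lum and Dpt had positive and Mfap5 had negative log2 fold changes. Dcn and Lum, neighbours on chromosome 10 (97479609 to 97518143 and 97565128 to 97572703, both plus strand), encode the small leucine-rich proteoglycans decorin and lumican. Dcn was at 76.3, 68.3 and 72.8 CPM in NF-YA cKO and at 28.8, 28.3 and 9.26 CPM in the NF-YA fl/fl libraries. The genotypes were separate, with the lowest NF-YA cKO library above the highest control. Dcn had a log2 fold change of 1.71 ± 0.39 with an FDR of 0.0145, which missed the call, and of 1.34 with an FDR of 0.000104 without NF-YA fl/fl 3. Lum was at 13.4, 14.0 and 21.3 CPM in NF-YA cKO and at 1.41, 3.99 and 0.679 CPM in the NF-YA fl/fl libraries. Lum was likewise higher in every NF-YA cKO library and had the largest log2 fold change of the 10 genes, 2.98 ± 0.59 (FDR = 0.00841), or 2.55 without NF-YA fl/fl 3 (FDR = 0.0034). Without NF-YA fl/fl 2, the control in which Lum was highest, it was 3.95. The next genes along the same chromosome, Kera (97606879 to 97613692) and Epyc (97644068 to 97682454), encode 2 further proteoglycans of the family and were too low to be tested. Kera was at 0.094 to 0.128 CPM in NF-YA cKO libraries and at 0 in each NF-YA fl/fl library, and Epyc was at 0.121 to 0.351 against 0 to 0.0382 CPM. Kera and Epyc were singled out after their values were seen.

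Dpt (chromosome 1, 164796644 to 164824266, plus strand), which encodes the matrix protein dermatopontin, was at 1.08, 2.78 and 4.21 CPM in NF-YA cKO and 0.765, 1.28 and 0.204 CPM in the NF-YA fl/fl libraries. NF-YA cKO 1 was below NF-YA fl/fl 2, so the groups overlapped. The log2 fold change was 1.83 ± 0.69 (FDR = 0.0739), and 1.38 without NF-YA fl/fl 3 (FDR = 0.0873). Mfap5 (chromosome 6, 122505845 to 122529290, plus strand), which encodes a glycoprotein of elastic microfibrils, was at 8.96, 9.07 and 10.4 CPM in NF-YA cKO and 37.0, 23.1 and 6.31 CPM in the NF-YA fl/fl libraries. NF-YA fl/fl 1 and 2 lay above and NF-YA fl/fl 3 below all NF-YA cKO libraries. The log2 fold change was -1.22 ± 0.55 (FDR = 0.121), and -1.66 without NF-YA fl/fl 3 (FDR = 0.00107), when Mfap5 passed the call.

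Without NF-YA fl/fl 3, 3 of the 10 genes were called higher (Dcn, Lum and Dpp4) and 3 lower (Ly6a, Thy1 and Mfap5), beside 4.97% and 9.81% of 17170 tested genes. Leaving out any 1 NF-YA cKO library or NF-YA fl/fl 1 left 0 of the 10 genes called in either direction, and leaving out NF-YA fl/fl 2 left Lum. In these fits 1.03% to 1.74% of genes were called higher, and 5.23% without NF-YA fl/fl 2, and 3.05% to 7.43% were called lower. Lum had an FDR of at most 0.0391 and Dpp4 of at most 0.0189 in any of the 6 fits. Lum was called with all libraries and without NF-YA fl/fl 2 or 3, and Dpp4 with all libraries and without NF-YA fl/fl 3. The direction of Ly6a, Dcn, Lum, Dpt, Thy1, Mfap5, Pi16, Dpp4 and Osr1 was the same in all 6 fits.

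**Figure D2:**
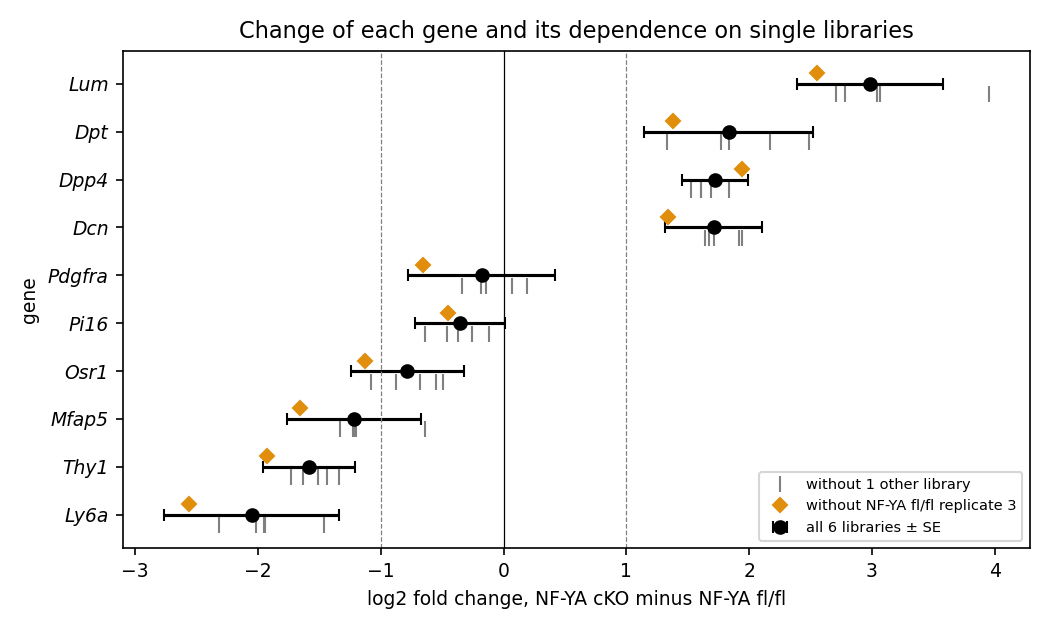
Log2 fold change of each FAP gene, NF-YA cKO minus NF-YA fl/fl (black, with SE), the values with 1 other library left out (grey ticks) and without NF-YA fl/fl 3 (orange). Dashed lines mark the fold needed for a call. Pdgfra alone has values on both sides of 0, from -0.66 to 0.19.

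Because most of the 10 genes were low together in NF-YA fl/fl 3, each of the other 9 was also expressed as a percent of the Pdgfra CPM of the same library, a quantity that does not depend on library scaling and that was chosen after the levels were seen, with no test. Dcn was at 73.6% to 87.9% of Pdgfra in NF-YA cKO and 19.3% to 42.9% in NF-YA fl/fl libraries, and Lum at 13.0% to 25.3% against 1.07% to 3.14%. Dpt was at 1.05% to 5.00% against 0.578% to 0.942%. Ly6a was at 3.72% to 4.92% against 13.2% to 18.4%, and NF-YA fl/fl 3, which overlapped the NF-YA cKO libraries in CPM, was close to NF-YA fl/fl 1 on this scale (13.2% and 14.0%). Thy1 (9.51% to 15.9% against 31.7% to 75.8%), Mfap5 (8.65% to 12.4% against 15.7% to 29.2%) and Osr1 (3.11% to 5.32% against 5.58% to 15.2%) were also lower relative to Pdgfra in every NF-YA cKO library. Dpp4 overlapped, because its 14.4% in NF-YA fl/fl 3 exceeded the 7.92% to 10.6% of the NF-YA cKO libraries, and so did Pi16. Thus 3 genes lay wholly above and 4 wholly below, where 3.12% and 11.6% of all tested genes did so on the same scale. These shares are not a like background. Pdgfra was at 15.5% of the mean of NF-YA fl/fl 1 and 2 in NF-YA fl/fl 3, where the median tested gene was at 101%. Genes that were not low in that library therefore have a raised percent there. Ly6a, Dpt, Mfap5 and Osr1 overlapped in CPM and were separate only on this scale, so the counts are a description.

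**Figure D3:**
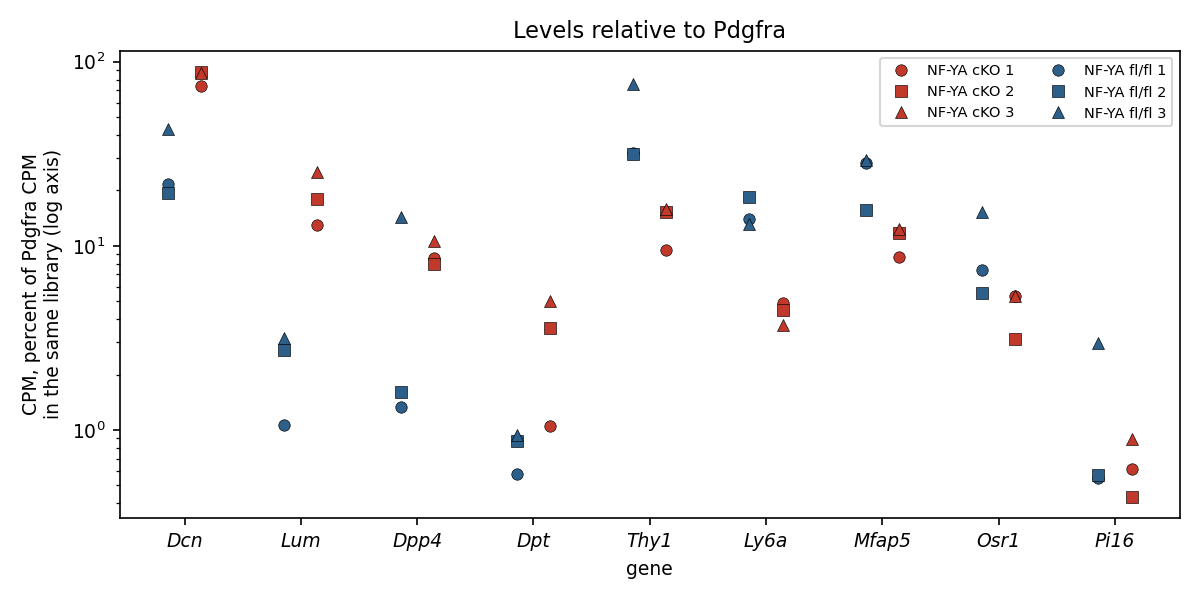
CPM of 9 FAP genes as a percent of the Pdgfra CPM in the same library, on a log axis, for NF-YA fl/fl (blue) and NF-YA cKO (red) libraries. Percents are to be compared between libraries of 1 gene, not between genes of different length. Dcn, Lum and Dpt lie higher and Thy1, Ly6a, Mfap5 and Osr1 lower in every NF-YA cKO library.

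The files also divide each gene into transcripts, of which the 10 genes had 28, and 23 passed 3 counts in some library. In 7 of these the genotypes did not overlap, 4 lying wholly above and 3 wholly below in NF-YA cKO libraries, beside 13.5% and 15.0% of the 61546 transcripts of all genes that passed the same floor. The count of 7 is thus near that background, and for 3 libraries against 3 the smallest p of the exact permutation test (two-sided) is 0.1. The division is RSEM's estimate. Of Dcn, the transcript of 1887 nt was at 59.5, 57.5 and 59.1 CPM in NF-YA cKO and 26.0, 26.5 and 7.44 CPM in the NF-YA fl/fl libraries, and that of 1814 nt, whose first exon lies downstream, at 16.7, 10.8 and 13.6 against 2.73, 1.77 and 1.82 CPM. Neither Dcn transcript overlapped between genotypes (exact permutation p = 0.1 for each). Lum, Dpt, Thy1 and Osr1 had 1 transcript each. The other non-overlapping transcripts were those of Lum and Thy1, the main one of Dpp4, and 2 minor ones of Ly6a (971 and 987 nt), which were lower in NF-YA cKO libraries, at 0.233 to 0.724 against 0.952 to 6.30 CPM and at 0 to 0.112 against 0.475 to 0.670 CPM.

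Pdgfra had 5 transcripts, and the upstream one of 6553 nt (first exon at chromosome 5, 75152306 to 75152457) was at 65.7, 51.7 and 51.1 CPM in NF-YA cKO and 67.0, 81.5 and 3.23 CPM in the NF-YA fl/fl libraries. The transcript of 6570 nt that starts downstream (first exon at 75155899 to 75156349) was at 9.83, 7.16 and 9.28 against 20.6, 20.9 and 9.62 CPM. The low Pdgfra of NF-YA fl/fl 3 was therefore not shared evenly. The upstream transcript held 15.0% of its 637 Pdgfra counts (95% Wilson interval 12.4 to 17.9%, counting error only) against 50.7% and 55.7% in NF-YA fl/fl 1 and 2 and 60.8% to 66.5% in NF-YA cKO libraries. The downstream transcript held 44.6% of them against 15.6% and 14.3%, and 9.22% to 11.0% in NF-YA cKO libraries. The share of the upstream transcript was higher and that of the downstream one lower in every NF-YA cKO library (exact permutation p = 0.1 for each).

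Dpp4 had 6 transcripts, of which a predicted non-coding model of 3197 nt took 85.1% to 96.4% of the Dpp4 counts of each library. It was at 8.44, 5.92 and 8.26 CPM in NF-YA cKO and 1.64, 2.24 and 2.65 CPM in the NF-YA fl/fl libraries, without overlap (exact permutation p = 0.1). The curated coding transcript of 5268 nt was at 0.221 to 0.624 CPM in NF-YA cKO and 0 to 0.464 CPM in the NF-YA fl/fl libraries, and these overlapped. The higher Dpp4 value was thus one of a model that is not annotated to encode the peptidase, and whether the protein's messenger changed was not resolved. Gm13561, an annotated antisense gene over the same locus, had 0 counts in all 6 libraries, and the strand setting of the counting is not given in the sources used here.

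**Figure D4:**
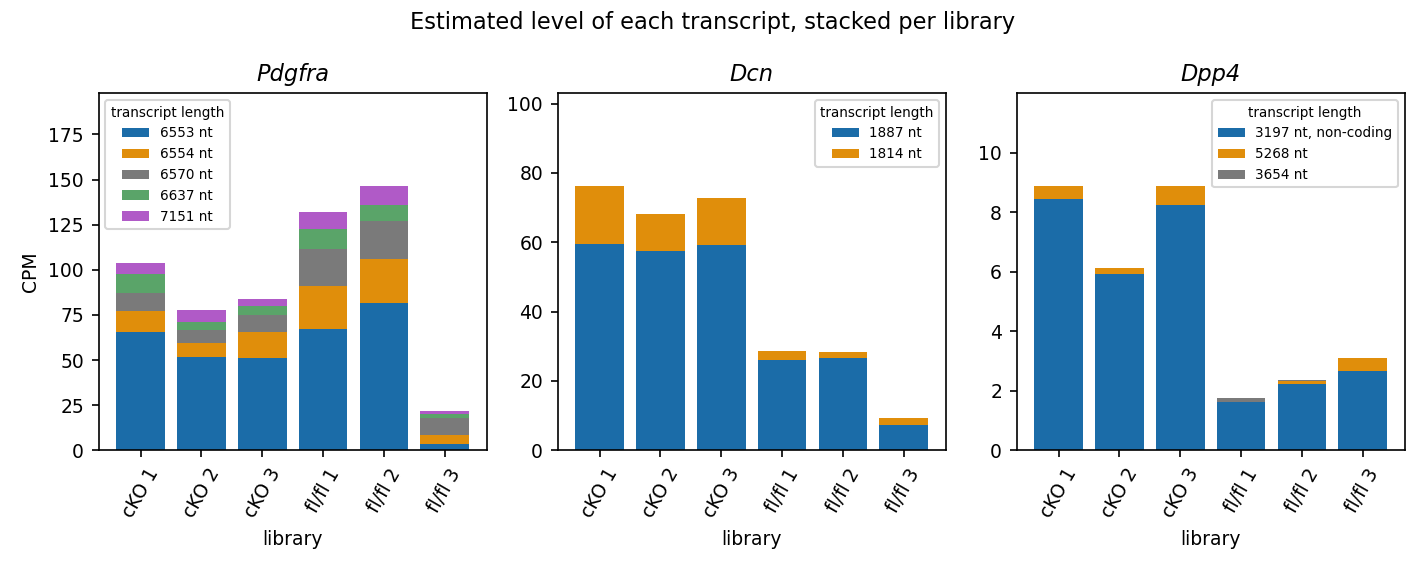
Estimated CPM of each transcript of Pdgfra, Dcn and Dpp4 with more than 3 counts in some library, stacked in each library and named by length. In NF-YA fl/fl 3 the 6553 nt transcript of Pdgfra holds 15.0% of the counts, both Dcn transcripts are higher in NF-YA cKO, and the 3197 nt non-coding model carries most of Dpp4.

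The lists around these genes, named by the family or state their members share, were read in the same fit. Of 25 other FAP and fibroblast genes 24 were tested, 1 was called higher and 0 lower, with a median log2 fold change of 0.07. The 1 was C3, the central complement component, at 46.7, 14.7 and 16.9 CPM in NF-YA cKO and 3.79, 2.68 and 3.05 CPM in the NF-YA fl/fl libraries (log2 fold change 3.04 ± 0.49, FDR = 0.00382). Without NF-YA fl/fl 3, 2 were called higher (C3, 3.01, and Il33, 1.14) and 3 lower (Cd248, -1.68, Igfbp6, -1.87, and Vit, -1.49), and without NF-YA fl/fl 1 or 2 the count was 0. Clec3b had at most 3 counts in every library. Of the 12 further genes of the adventitial Pi16 and Dpp4 state, 1 was called higher (Ackr3, a scavenging chemokine receptor, 2.17 ± 0.38) and 2 lower (Limch1, -2.96 ± 0.25, and the guidance ligand Sema3c, at 13.7 ± 1.57 against 54.8 ± 3.06 CPM), with a median of -0.47. Of 10 genes of the interstitial state marked by Col15a1 and Smoc2, 1 was called higher, Hsd11b1, which regenerates active glucocorticoid (3.17 ± 0.25), and 0 lower, with a median of 0.26.

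The family of decorin and lumican held calls in both directions. Of 13 tested small leucine-rich proteoglycans (17 listed) Lum and Omd (1.01 ± 0.19) were called higher and Ogn lower, with a median of -0.30. Ogn, which encodes osteoglycin, was at 12.4, 8.86 and 15.5 CPM in NF-YA cKO and 106, 77.7 and 75.3 CPM in the NF-YA fl/fl libraries (log2 fold change -2.82 ± 0.24, FDR = 0.000455), so that Ogn and Lum lay on opposite sides without overlap. Of 18 elastic microfibril genes, to which Mfap5 belongs, 0 were called higher and 1 lower, Ltbp4, a binder of latent TGF-beta (34.4 to 37.4 against 55.2 to 89.5 CPM), with a median of -0.72. Of 6 PDGF ligands and receptors, 0 were called higher and 1 lower, the ligand Pdgfc (-1.16 ± 0.13), with a median of -0.59.

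Of 7 tested genes of the dipeptidyl peptidase family, Dpp4 was called higher and Dpp6, a potassium channel subunit without peptidase activity, lower (-3.20 ± 0.34), with a median of 0.05. Of 6 tested CAP family genes, to which Pi16 belongs, 0 were called higher and R3hdml lower (-4.49 ± 0.72), with a median of 0.70. Of 7 tested Ly6 and Thy1 related genes for GPI-anchored proteins, Plaur, the urokinase receptor, was called higher (1.38 ± 0.25) and Lynx1, a modulator of acetylcholine receptors, lower (-1.51 ± 0.27), with a median of -1.18.

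The fates FAPs are known for were read from 2 lists. Of 10 tested adipogenic genes (14 listed) 0 were called in either direction, with a median of -0.15, and the 4 untested ones (Adipoq, Plin1, Lep and Cidec, markers of mature adipocytes) had at most 3 counts in every library. The highest of this list, the lipoprotein lipase gene Lpl, was at 26.9, 35.4 and 32.7 CPM in NF-YA cKO and at 44.7, 28.5 and 222 CPM in the NF-YA fl/fl libraries, and was thus highest in NF-YA fl/fl 3, where the FAP genes were low. The next, Cebpb, a factor of early adipogenesis, was higher in every NF-YA cKO library, at 45.0 to 57.4 against 28.3 to 32.9 CPM (log2 fold change 0.68 ± 0.13, FDR = 0.00727), below the fold needed for a call. Of 14 fibrogenic genes 0 were called higher and 1 lower, Acta2, the actin of myofibroblasts and smooth muscle (-1.20 ± 0.15, FDR = 0.00155), with a median of 0.08.

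Markers of the other cell types that the cultures could hold moved with genotype, and their part in the FAP gene levels was not tested. The summed level of the 10 FAP genes was 196 to 233 CPM in NF-YA cKO libraries and 64.4, 273 and 288 CPM in the NF-YA fl/fl libraries. Among 12 SC and myoblast markers (10 tested) 0 were called higher and 2 lower (Des, -2.09 ± 0.14, and Cdh15, -1.78 ± 0.13). The sum over the list was 1903 to 2130 against 2748 to 4533 CPM, of which Des alone was 295 to 374 against 1218 to 1528 CPM. Of the 10 tested markers 3 lay wholly above, 4 wholly below and 3 overlapped, beside 29.1% above and 26.2% below among all tested genes. The sum thus does not stand for the list. Pax7, which defines SCs, was at 146 to 201 against 73.5 to 105 CPM (log2 fold change 0.94 ± 0.17, FDR = 0.00624), and Myod1 at 510 to 627 against 295 to 1146 CPM. All 10 matched markers of differentiated muscle were called lower, with a sum of 683 to 1510 against 46790 to 56650 CPM, and Myog was at 10.7 to 31.4 against 584 to 1450 CPM (-5.62 ± 0.54, FDR = 0.000683).

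Of 14 macrophage and leukocyte markers 13 were called higher and 0 lower, with a sum of 153 to 286 CPM in NF-YA cKO and 10.8 to 19.8 CPM in the NF-YA fl/fl libraries. Adgre1 (5.37 ± 0.67) and Lyz2 (5.33 ± 0.49) had the largest log2 fold changes. Of the 4 antigens that the beads removed, Ptprc (CD45) was at 1.15 to 3.06 against 0 to 0.170 CPM and Itgam (CD11b) at 6.20 to 11.3 against 0.862 to 1.45 CPM, both called higher, Pecam1 (CD31) was at 1.95 to 2.20 against 0.994 to 1.59 CPM (log2 fold change 0.69 ± 0.25, FDR = 0.063), and Ly6a is given above. The sum over 11 endothelial markers was 28.3 to 32.3 against 16.1 to 22.9 CPM, with Esam and Kdr called higher and Vwf lower. Kdr alone was at 5.43 to 10.5 against 1.15 to 1.52 CPM. Of the 10 tested endothelial markers 6 lay wholly above, 1 wholly below and 3 overlapped, beside 29.1% above and 26.2% below among all tested genes.

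Pericyte and smooth muscle markers (11 listed, 9 tested) summed to 962 to 1095 against 2040 to 2455 CPM, with Abcc9 (-5.52 ± 0.26) and Acta2 called lower. Most of this sum was Acta2, at 635.5 to 806.4 against 1389 to 1740 CPM. The genotypes overlapped in 5 of the 9 tested markers, so the sum does not stand for the list. The defining marker Rgs5 was at 1.88 to 2.01 against 2.78 to 44.0 CPM (FDR = 0.0249). Tenocyte markers (8 listed, 7 tested) overlapped in sum, at 54.8 to 87.9 against 56.4 to 66.2 CPM, with Thbs4 called higher and Cilp2 and Scx lower. Of 9 Schwann cell markers 5 were called higher (Mbp with the largest change, and Sox10 among them) and Erbb3 was called lower. Their sum, in which Erbb3 weighs most in the controls, was 93.2 to 104 against 131 to 219 CPM. Adipocyte markers summed to 6.44 to 10.2 against 55.4 to 160 CPM, most of it from Car3 (called lower, -5.43 ± 0.52) in the NF-YA fl/fl libraries, with Adipoq, Plin1, Lep and Cidec at 3 counts or fewer. Fabp4, not called, was higher in every NF-YA cKO library (1.79 to 2.04 against 0.204 to 1.70 CPM), and Plin4 overlapped. The sum thus follows Car3 and does not stand for the list.

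**Figure D5:**
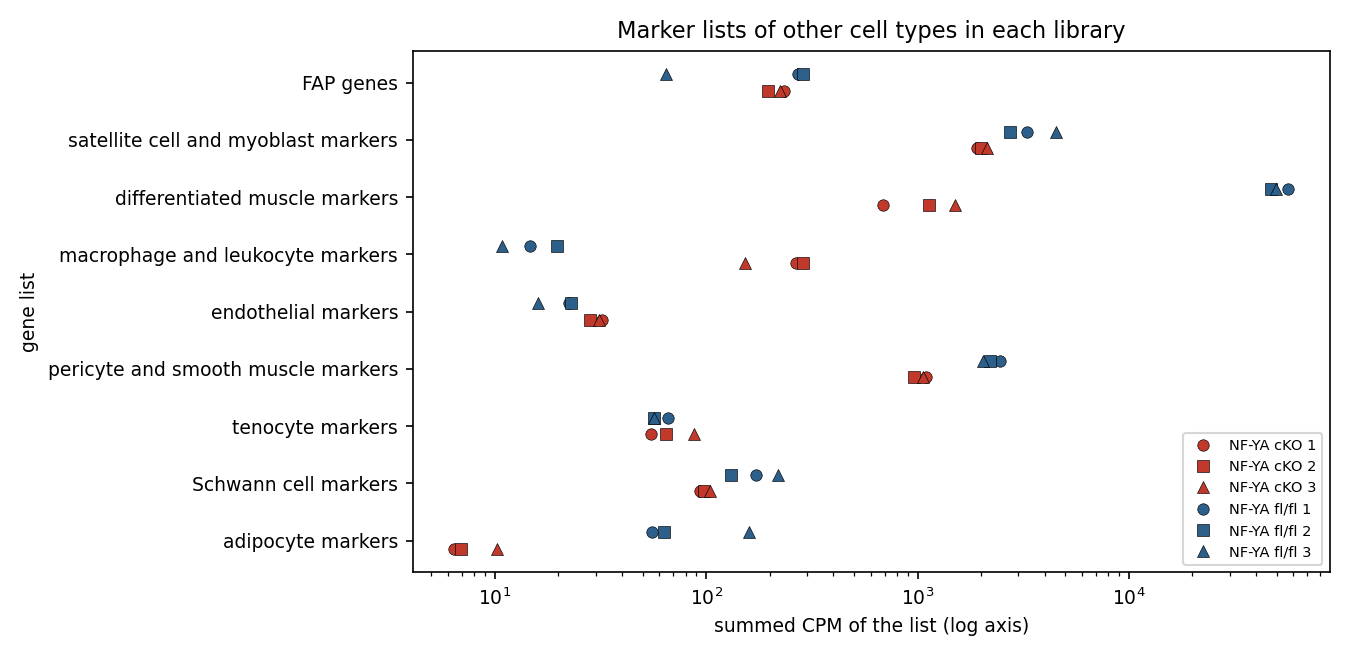
Summed CPM of the 10 FAP genes and of marker lists of other cell types in each library, on a log axis, with NF-YA fl/fl in blue and NF-YA cKO in red. The FAP gene sum of NF-YA fl/fl 3 is 64.4 CPM, the macrophage sum is higher and the differentiated muscle sum lower in every NF-YA cKO library.

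The genes whose pattern over the 6 libraries was most like that of Pdgfra and of Dcn were sought among 9457 genes whose mean reached 10 CPM, by the root mean square difference of centred log2 CPM. Among the nearest to Pdgfra were Ereg (0.164) and Rnase4 (0.174). Ereg was at 75.9, 45.7 and 44.8 CPM in NF-YA cKO and 81.4, 104 and 14.9 CPM in the NF-YA fl/fl libraries, and so shared the low value of NF-YA fl/fl 3. Nearest to Dcn were Procr (0.150), Dusp5 (0.158) and Plscr1 (0.169). Procr was at 22.3, 17.5 and 16.4 CPM in NF-YA cKO libraries, at 7.42 and 8.65 CPM in the NF-YA fl/fl 1 and 2, and lowest in NF-YA fl/fl 3.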

How the data were processed

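RNA-seq libraries of cultured SCs, 3 of NF-YA cKO and 3 of NF-YA fl/fl mice, were analyzed, grouped by the genotype in the sample labels. The Methods do not state how many mice each library represents. Libraries with the same replicate number come from different mice. Paired reads of 75 nt (TruSeq Stranded Total RNA, 500 ng) were mapped by the authors with bowtie2 to mm10 transcripts and quantified with RSEM, which divides reads shared by similar or overlapping transcripts. The deposited expected counts are estimates, neither normalized nor filtered. The deposited TPM values were scaled by the authors' software to transcript length and to a fixed sum. The deposited isoform percent is a transcript's share of its gene's TPM.

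Expected counts were rounded, and genes that exceeded 10 counts in 2 or more libraries entered edgeR 4.0.16 (R 4.3.3) with TMM and its quasi-likelihood test of genotype, no covariate, and the Benjamini-Hochberg FDR over all tested genes. The SE is that of the log2 fold change. Transcripts were compared with exact permutation tests (scipy 1.17.1). On simulated counts of 17348 genes for this comparison, 81 of 100 genes changed 4-fold (2 on the log2 scale) were called, 15 of 100 changed by 1 on the log2 scale, and 2 unchanged genes. The simulation gave both genotypes the same spread, unlike the data (coefficient of variation 0.31 in NF-YA fl/fl and 0.105 in NF-YA cKO). It changed only genes with a mean above 1 CPM, which leaves out Pi16, so its rates need not hold for the FAP genes. Coordinates are GENCODE vM21 on GRCm38 and promoters are RefSeq. Results were recomputed with DESeq2 1.42.0, DESeq2's size factors in edgeR, library totals, other filters, limma 3.58.1 on log2(TPM + 1) and log2(TPM + 0.1), unrounded counts, other thresholds, a replicate block and leaving out each library. The 10 genes and the lists were chosen with earlier results of these data known. From each list the text names up to 2 called genes with the largest rise and 2 with the largest fall, or the 2 with the highest mean CPM where no gene was called, besides all 10 FAP genes, bead antigens, defining markers and library checks. Genes named outside this rule (Kera, Epyc, Gm13561, Cd248, Igfbp6, Il33, Vit, Clec3b, Fabp4, Plin4 and the untested adipocyte genes) were chosen after their values were seen. Some results that these rules name are not reported here. Plots were drawn with matplotlib 3.10.9.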

Additional observations from a re-analysis of the deposited data

How the results depend on the processing

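The count of FAP genes called higher, 2 with all libraries, was 1 with limma on log2(TPM + 1) (Lum), 0 with limma on log2(TPM + 0.1) and 0 with glmTreat at a log2 fold of 1, where 1.33%, 2.08% and 0.559% of all tested genes were called higher against 4.65% in the main test. It was 3 (Dcn, Dpp4 and Lum) without a filter on low counts, with DESeq2 and at an FDR under 0.05. In these settings 3.47%, 5.68% and 6.7% of all tested genes were called higher. The count ran from 0 to 3 when single libraries were left out. The count called lower, 0 with all libraries, was 1 without a filter on low counts and 1 at an FDR under 0.05 (Thy1 in both), 2 with DESeq2 (Ly6a and Thy1), where 5.27%, 11.7% and 10.4% of all tested genes were called lower against 7.67%, and 0 to 3 when single libraries were left out. Of the other FAP and fibroblast genes 1 was called with all libraries, 2 with DESeq2 and 2 at an FDR under 0.05 (C3 and Il33), 0 with limma on log2(TPM + 1), 0 with glmTreat, and 0 to 5 when single libraries were left out. The causes were not tested, except that a fit without 1 library has fewer samples. Pdgfra changed direction, being 0.08 with limma on log2(TPM + 1), 0.14 on log2(TPM + 0.1) and between -0.66 (without NF-YA fl/fl replicate 3) and 0.19 when single libraries were left out. The counts of non-overlapping genes (4) and transcripts (7) were the same in TPM. With DESeq2's size factors, library totals, filterByExpr and unrounded counts, both called genes were again Dpp4 and Lum.

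The labels do not say whether the replicate numbers pair the mice. The deviations of same-numbered libraries from their group means correlated at 0.209, -0.103 and 0.051, and not every library correlated best with its own number. With the replicate number as a block, 1 FAP gene was called higher (Dpp4) and 0 lower, beside 3.60% and 5.46% of all tested genes, Lum was at 3.23 with an FDR of 0.0162 in edgeR's test, and Pdgfra was at 0.18. The biological coefficient of variation over all genes was 0.31 among the 3 NF-YA fl/fl mice and 0.105 among the 3 NF-YA cKO mice. The values of Pi16 and Dpt rest on 6 to 179 counts per library.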
